A study of Mus musculus with 9 samples.

Results

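The genes described here make cholesterol, sense its level, and move, store or remove it. They are a fixed list of 33 mouse genes, chosen by name with earlier results of these data known. They were matched by Ensembl identifier to the 54232 genes of each count file. All 33 were found, and each matched 1 identifier. By role, 6 encode the early mevalonate steps, 5 the isoprenoid and squalene steps and 9 the late sterol steps, which makes 20 synthesis genes. A further 7 control the SREBP transcription factors, and 6 serve transport, storage, efflux and turnover. Although uptake is part of the theme, no gene of the list is a lipoprotein receptor of the cell surface, and the uptake side is held by the lysosomal pair Npc1 and Npc2.

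The study sequenced RNA from cortical neurons of wildtype CD1 mice, an outbred stock, in 3 groups of 3 repeats. The PA + PS2 group had the peptide amphiphile with PS2, and its library names give IKVAV plus PEDOT-S-OH. The PA group had the peptide amphiphile alone, with IKVAV in its library names. The control group is named PDL in its library names. A peptide amphiphile carries a fatty chain on a short peptide and packs into nanofibres, IKVAV is a cell-binding sequence of laminin, and PEDOT polymers conduct electricity. Controls bear the same treatment label as the other groups, so the titles were used to assign groups; ages, times and amounts are not given in the labels. The labels do not say whether repeats were separate cultures, and the p-values then cover only the spread among these libraries, possibly a technical one.

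Cholesterol is built from acetyl-CoA through mevalonate, isoprenoid diphosphates, squalene and lanosterol. When sterols are scarce, SCAP carries SREBP proteins from the endoplasmic reticulum to the Golgi, where the MBTPS1 and MBTPS2 proteases release the part that enters the nucleus and turns on synthesis genes; INSIG proteins hold SCAP back when sterols are plentiful. The brain makes its own cholesterol because lipoproteins of the blood do not cross into it, and neurons use it for membranes, axons and synapses.

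The promoters are shown first because SREBP acts on them. RefSeq promoters of build GRCm38.p6 matched 28 of the 33 genes. Fdps, Fdft1, Sqle, Stard4 and Npc1 had no promoter to search, so the counts below leave them out. The 250 bases before each start were searched on both strands for TCACNCCAC, a sterol regulatory element, for its shorter core CACNCCAC, and for the CCAAT box and the GC box GGGCGG, the binding sequences of the partner factors NF-Y and Sp1. A gene counted once if any of its promoters matched. The CCAAT box was found in 23 of the 28 genes, against 37.5% of all 27025 genes searched and 41.0% of the 8371 genes with at least 1000 counts in these libraries. The GC box was found in 24 of the 28, against 35.4% of all genes searched and 67.4% of those with at least 1000 counts. The longer sterol element was found in 1 of the 28, Hmgcs1, against 1.22% of all genes searched and 1.24% of those with at least 1000 counts. The shorter core was found in 3, Acat2, Hmgcs1 and Insig1, against 6.05% and 6.68%. A match describes the letters only.

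The first 5 promoters below belong to synthesis or feedback genes whose levels are given by library further on, and the 6th to the efflux gene Abca1. Of these, Hmgcs1 had a log2 fold change of 0.02 in PA + PS2 against control. Each is the 150 bases before the RefSeq start, read 5′ to 3′ on the gene's strand, with the matches in capitals. The stretches lie at chr17:12960726-12960875 (minus strand) for Acat2, chr13:119690201-119690350 (plus) for Hmgcs1, chr8:122443423-122443572 (minus) for Mvd, chrX:72918371-72918520 (plus) for Nsdhl, chr5:28071262-28071411 (plus) for Insig1 and chr4:53159896-53160045 (minus) for Abca1.
Acat2: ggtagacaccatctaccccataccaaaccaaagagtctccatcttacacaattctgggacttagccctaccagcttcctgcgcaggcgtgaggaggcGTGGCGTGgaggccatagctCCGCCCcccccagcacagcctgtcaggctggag
Hmgcs1: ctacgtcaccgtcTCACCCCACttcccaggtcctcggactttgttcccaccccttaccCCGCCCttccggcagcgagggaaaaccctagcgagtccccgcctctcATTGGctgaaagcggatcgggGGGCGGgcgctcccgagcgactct
Mvd: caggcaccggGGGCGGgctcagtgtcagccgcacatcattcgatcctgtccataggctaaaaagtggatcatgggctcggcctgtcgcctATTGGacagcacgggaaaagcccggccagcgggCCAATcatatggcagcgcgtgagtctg
Nsdhl: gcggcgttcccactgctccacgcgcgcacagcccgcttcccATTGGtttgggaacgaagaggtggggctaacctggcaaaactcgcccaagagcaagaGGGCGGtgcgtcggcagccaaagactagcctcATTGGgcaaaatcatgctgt
Insig1: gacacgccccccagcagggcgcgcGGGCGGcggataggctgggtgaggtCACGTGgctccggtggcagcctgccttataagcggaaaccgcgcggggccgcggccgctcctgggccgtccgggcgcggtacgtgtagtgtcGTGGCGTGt
Abca1: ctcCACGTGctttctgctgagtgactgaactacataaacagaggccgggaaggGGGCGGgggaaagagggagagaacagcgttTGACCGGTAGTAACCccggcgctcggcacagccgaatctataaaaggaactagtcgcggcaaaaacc
In these stretches Hmgcs1 holds the sterol element on the printed strand, and Acat2 and Insig1 hold the shorter core on the other strand. The Insig1 core lies at -9 to -2 of the RefSeq start. In GENCODE M21 the gene starts earlier, at chr5:28071363, so there the core lies within the gene. Mvd and Nsdhl hold CCAAT boxes on 1 or both strands and a GC box each. The Abca1 stretch holds, on the other strand, GGTNA and GGTCA with 5 letters between them, a form of the direct repeat that the sterol-activated LXR receptors bind. This element was found in 2 of the 28 genes, Srebf1 and Abca1, against 0.189% of all genes searched and 0.155% of those with at least 1000 counts. In both genes the letter at N is T, not the C of an exact repeat of GGTCA. The pattern is loosened at that letter, so its share beside that of all genes is a description only. The E-box CACGTG, a binding sequence of many helix-loop-helix factors, is in the Insig1 and Abca1 stretches and was found in 6 of the 28, against 6.86% of all genes searched and 10.3% of those with at least 1000 counts.

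Total counts ran from 20746851 to 27237398 per library, and the 33 genes took 0.529% to 0.638% of them. The cells carried the neuronal markers: the 12 of them summed to 7045 to 7775 CPM, reads scaled to a common library size, in PA + PS2, 6534 to 7725 in PA and 6683 to 7307 in control libraries. Sums of the astrocyte list were 177 to 217, 231 to 269 and 173 to 289 CPM in PA + PS2, PA and control libraries, with Gjb6 at 0 in all 9. The oligodendrocyte lineage list summed to 61.9 to 88.1, 78.3 to 85.1 and 68.5 to 90.2 CPM. The fibroblast and mural list summed to 22.7 to 70.1 CPM in PA + PS2, against 111 to 180 in PA and 175 to 232 in control libraries. The dividing cell list summed to 101 to 124 CPM in PA + PS2, against 173 to 235 in PA and 128 to 274 in control libraries. Sums were 3.97 to 5.74, 5.35 to 7.66 and 6.08 to 8.56 CPM for the microglial list, with P2ry12 at 0 in 7 libraries. They were 1.25 to 2.58, 2.22 to 3.48 and 2.07 to 3.26 CPM for the endothelial list, with Cldn5 at 0 in 8 libraries. In the repeat 1 libraries the mitochondrial share of counts was 0.786% (PA + PS2), 0.342% (PA) and 0.531% (control), against 0.837% to 1.39% in the other 6.

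The pathway was expressed in every library, and 32 of the 33 genes averaged at least 10 CPM over the 9 libraries. Levels below are in CPM of scaled library sizes, and levels of different genes are compared in CPM per kilobase of exon. The length counts every annotated exon base of a gene once, over all its transcripts, and can exceed that of the transcript expressed. The order of genes by level depends on this length, and the transcripts expressed were not determined. Hmgcs1, the cytosolic HMG-CoA synthase that feeds mevalonate synthesis, was highest at 281 CPM per kilobase. Srebf2, the SREBP gene that chiefly drives cholesterol synthesis, followed at 106, Cyp51, the lanosterol demethylase, at 104, and Sqle, the squalene epoxidase that performs the first oxygen-dependent step, at 91.9 CPM per kilobase. Srebf1, whose product chiefly drives fatty acid synthesis, stood at 5.95 CPM per kilobase. The low end was held by Soat1, which esterifies cholesterol for storage, at 2.24, Abca1, which exports cholesterol to lipoprotein particles, at 1.56, and Idi1, the isopentenyl diphosphate isomerase, at 0.877 CPM per kilobase. Idi1 had as few as 52 reads in a library, and each of the other 32 had at least 122. Counting error was not set beside the spread between repeats for each gene, and it weighs most on genes with few reads. Cyp46a1, the neuronal hydroxylase that starts the removal of cholesterol from the brain, averaged 10.04 CPM per kilobase. In the plot of levels by library, 27 of the 32 pairs of neighbours in this order overlap in their ranges over the 9 libraries. The pairs apart are Hmgcs1 above Srebf2, Mvd above Fdft1, Insig1 above Msmo1, Npc1 above Lbr and Lbr above Soat1.

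**Figure D1:**
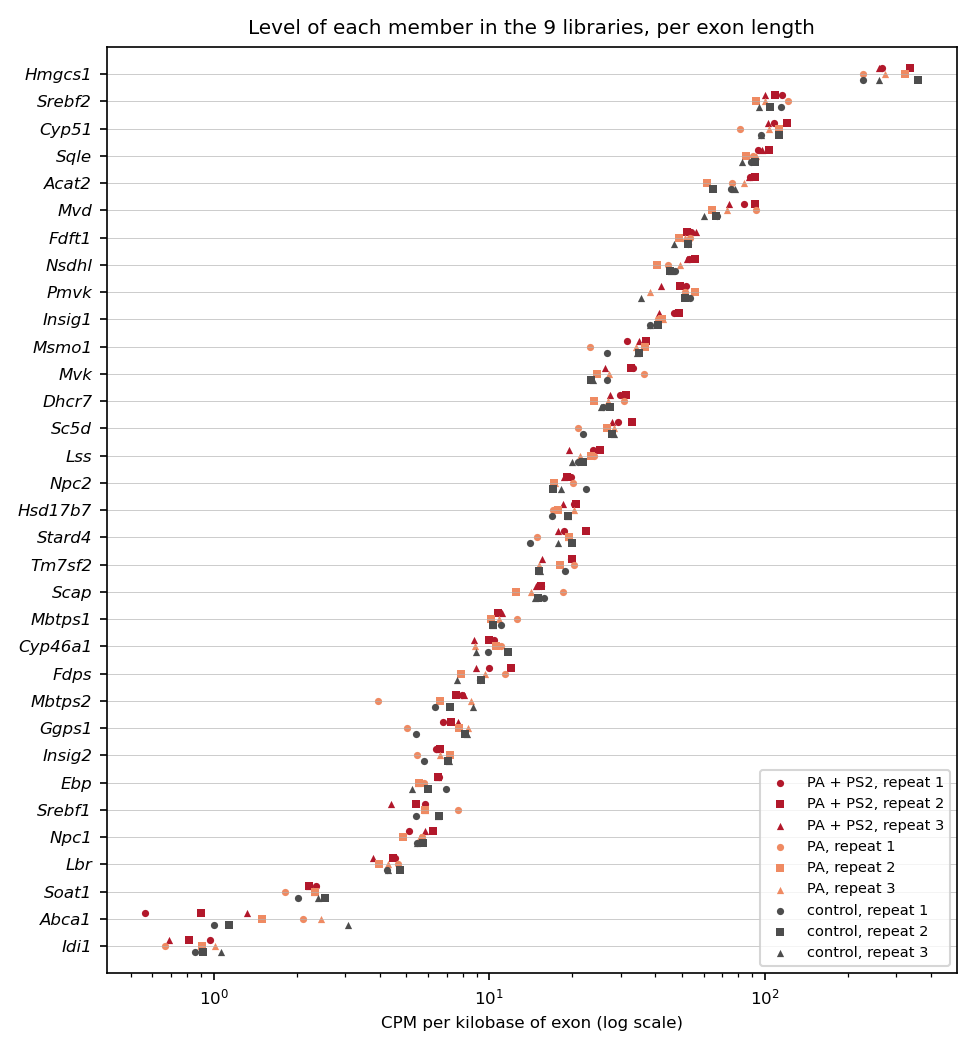
Level of each of the 33 genes in CPM per kilobase of exon (x axis, log scale), with 1 point per library; colour gives the group and shape the repeat. Hmgcs1 averaged 281 CPM per kilobase and Idi1 0.877, and the 3 groups lie over each other for nearly every gene, with Abca1 spread widest.

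No gene of the list passed the test in any of the 3 comparisons. Genes were tested by quasi-likelihood with edgeR on all 9 libraries, with p adjusted over 15712 genes by the method of Benjamini and Hochberg, with a threshold of 0.05. For PA + PS2 against control, 0 of the 33 passed, beside 7 of all genes tested, or 0.0446%, all 7 lower. For PA against control and for PA + PS2 against PA, 0 of the 33 and 0% of all genes tested passed. A blocked fit, with a term for the repeat number, raised the passing genes of PA + PS2 against control to 0.115% higher and 1.06% lower and those of PA + PS2 against PA to 0.0255% higher and 0.337% lower. It called 0 of the 33 in all 3 comparisons, and DESeq2 called 0 of the 33 in each comparison. At an unadjusted p under 0.05, the list had 4 genes higher in PA + PS2 than in control, 12.1% of it, beside 1.09% of all genes; these were Acat2, Mvd, Nsdhl and Insig1, and 0 were lower, beside 4.54% of all genes. For PA + PS2 against PA, Acat2 and Nsdhl were higher, 6.06% of the list beside 1.03% of all genes, and Abca1 was lower, beside 4.58% of all genes. For PA against control there were 0, beside 1.22% of all genes in either direction. The list was chosen with earlier results of these data known, so its shares beside those of all genes, here and below, are descriptions. In bulk RNA, fewer cells of a type and less RNA per cell cannot be told apart.

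The synthesis genes lay slightly above control in PA + PS2 and around it in PA. Against control, 17 of the 20 synthesis genes had a log2 fold change above 0 in PA + PS2 (median 0.12) and 10 of the 20 in PA (median 0.00). Over all genes tested, 49.8% lay above 0 in PA + PS2 against control and 47.2% in PA against control, and the medians were -0.00 and -0.01. Against PA, 16 of the 20 lay above 0 in PA + PS2, with a median of 0.10, beside 51.4% and a median of 0.01 over all genes. The 3 comparisons share libraries, so these counts are not separate evidence. The mean level was highest in PA + PS2 for 15 of the 20 synthesis genes, in PA for 2 and in control for 3. By library, the median log2 deviation of the 20 genes from the control mean was 0.08 to 0.26 in PA + PS2, -0.02 to 0.09 in PA and -0.06 to 0.07 in control. Their summed level overlapped between groups: it was 4059 to 4768 CPM in PA + PS2, 3771 to 4237 CPM in PA and 3717 to 4477 CPM in control libraries, with control repeat 2 above PA + PS2 repeats 1 and 3. The changes were small: apart from Abca1, the log2 fold changes of the list spanned -0.24 to 0.37 for PA + PS2 against control, -0.21 to 0.25 for PA against control and -0.31 to 0.30 for PA + PS2 against PA. The 95% interval lay within 0.5 on the log2 scale, 1.41-fold, on either side of 0 for 23, 28 and 26 of the 33 genes in these comparisons.

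**Figure D2:**
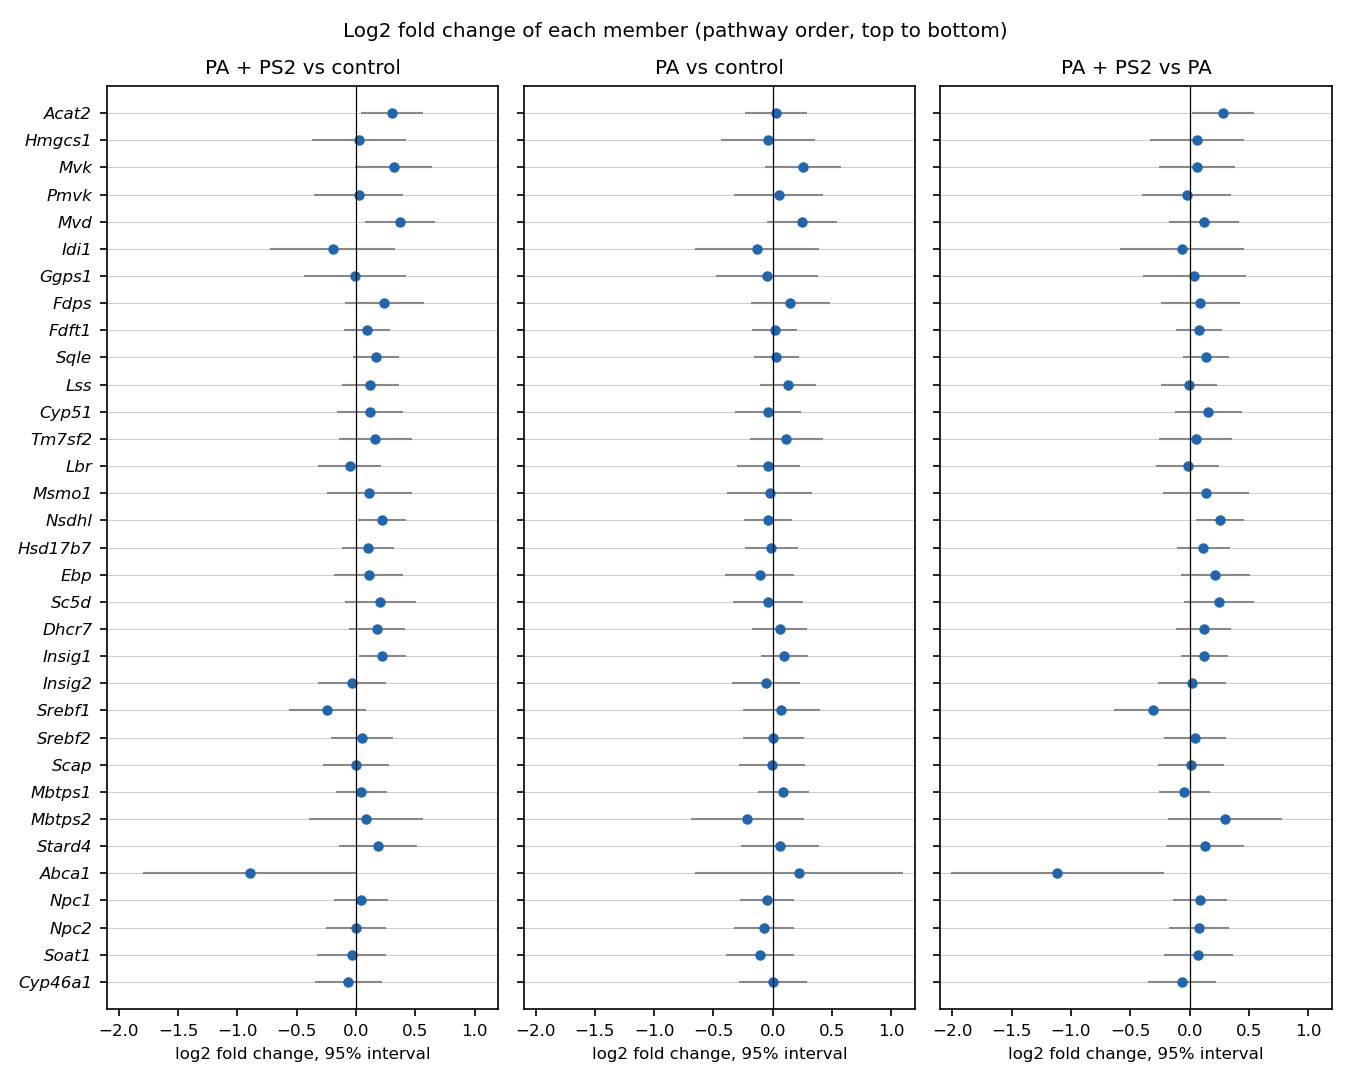
Log2 fold change of each gene in pathway order (points) with its 95% interval (lines) for PA + PS2 against control, PA against control and PA + PS2 against PA. In PA + PS2 against control, 17 of the 20 synthesis genes lie right of 0, with a median of 0.12; Abca1 lies farthest left, at -0.89 against control and -1.11 against PA.

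Among the early mevalonate genes, Acat2, the cytosolic thiolase that joins acetyl-CoA units, had 225, 234 and 222 CPM in PA + PS2, against 193, 156 and 213 in PA and 191, 164 and 197 in control libraries. Every PA + PS2 library lay above the other 6, and the PA and control libraries overlapped. Without overlap, the list had 5 genes higher in PA + PS2 than in control, Acat2, Mvd, Sqle, Nsdhl and Insig1, 15.2% of it, beside 5.38% of all genes, and 4 higher than in PA, Acat2, Sqle, Nsdhl and Ebp, beside 3.32%; 1, Abca1, was lower than in PA, beside 6.32%. The log2 fold change was 0.30 ± 0.12 (SE) against control (edgeR adjusted p = 0.656) and 0.28 ± 0.12 against PA (edgeR adjusted p = 0.797). Acat2 shares 39.1% of its 50-base stretches with other transcripts, mainly its paralog Acat3. Acat3 itself had 3 to 11 reads per library, and the effect of the shared stretches on the Acat2 counts was not tested. Mvd, the mevalonate diphosphate decarboxylase, had 156, 172 and 137 CPM in PA + PS2, 172, 119.8 and 135 in PA, and 125, 124 and 111 in control libraries. Its PA + PS2 libraries lay above all control libraries and overlapped with PA. It had the largest positive log2 fold change against control in the list, 0.37 ± 0.13 (edgeR adjusted p = 0.556; with the repeat block, adjusted p = 0.207).

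Mvk, the mevalonate kinase, had 88.7, 87.2 and 70.2 CPM in PA + PS2, 97.2, 65.6 and 72.6 in PA, and 71.2, 62.3 and 63.8 in control libraries. The groups overlapped, since PA + PS2 repeat 3 lay below control repeat 1. The log2 fold change against control was 0.32 ± 0.15 in PA + PS2 (edgeR adjusted p = 0.907) and 0.25 ± 0.15 in PA (edgeR adjusted p = 1). Hmgcs1 had 1224, 1545 and 1188 CPM in PA + PS2, 1040.2, 1486 and 1256 in PA, and 1043, 1654 and 1194 in control libraries. Repeat 2 was the highest in each group, and the groups overlapped throughout, with a log2 fold change of 0.02 ± 0.18 for PA + PS2 against control. Pmvk, the phosphomevalonate kinase, averaged 81.4 ± 8.80, 82.9 ± 15.3 and 80.1 ± 16.8 CPM in PA + PS2, PA and control (SD, n = 3 each). Idi1 had 3.42, 2.85 and 2.41 CPM in PA + PS2, 2.34, 3.18 and 3.53 in PA, and 3.00, 3.22 and 3.73 in control libraries. It had the lowest log2 fold change of the early genes against control, -0.20 ± 0.24 in PA + PS2, and 25.3% of its 50-base stretches occur in other transcripts, so its counts are uncertain.

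Among the isoprenoid and squalene genes, Sqle had 524, 573 and 540.3 CPM in PA + PS2, against 504, 472 and 514 in PA and 492, 509 and 458 in control libraries. All 3 PA + PS2 libraries lay above the other 6. The log2 fold change was 0.17 ± 0.09 against control (edgeR adjusted p = 1.00) and 0.14 ± 0.09 against PA. Fdps, the farnesyl diphosphate synthase at the branch to prenylated proteins and sterols, had 42.1, 50.3 and 37.7 CPM in PA + PS2, 48.2, 33.3 and 40.7 in PA, and 38.9, 39.3 and 32.1 in control libraries. Its groups overlapped, with log2 fold changes against control of 0.24 ± 0.15 in PA + PS2 and 0.15 ± 0.15 in PA. Ggps1, which makes geranylgeranyl diphosphate, had 32.0, 34.2 and 36.4 CPM in PA + PS2, 23.7, 36.5 and 39.6 in PA, and 25.6, 38.6 and 39.1 in control libraries. Repeat 1 was low in PA and control, and the log2 fold change against control was -0.01 ± 0.20 in PA + PS2. Lss, the lanosterol synthase, had 257, 272 and 209 CPM in PA + PS2, 259, 253 and 229.8 in PA, and 226, 237 and 216 in control libraries, with a log2 fold change against control of 0.12 ± 0.11 in PA + PS2 and 0.13 ± 0.11 in PA. Fdft1, the squalene synthase, averaged 228 ± 8.22, 216 ± 9.85 and 214 ± 14.1 CPM in PA + PS2, PA and control (SD, n = 3 each).

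Among the late sterol genes, Nsdhl, a dehydrogenase that removes the methyl groups at carbon 4 of the sterol ring, had 151, 159 and 148 CPM in PA + PS2, 127, 116 and 140.4 in PA, and 134, 129 and 131 in control libraries. The PA + PS2 libraries lay above the other 6, and the control libraries lay within the range of PA. The log2 fold change was 0.22 ± 0.09 against control (edgeR adjusted p = 0.772) and 0.26 ± 0.09 against PA (edgeR adjusted p = 0.602). Sc5d, the lathosterol desaturase, had 143, 161 and 135 CPM in PA + PS2, 102, 130.3 and 138 in PA, and 107, 136 and 138 in control libraries. The groups overlapped, and the log2 fold change was 0.21 ± 0.14 against control and 0.25 ± 0.14 against PA. Ebp, the sterol isomerase, had 15.2, 15.1 and 15.1 CPM in PA + PS2, 13.4, 12.9 and 12.7 in PA, and 16.1, 13.8 and 12.2 in control libraries. PA + PS2 lay above PA without overlap and inside the range of control. Ebp had 316, 392 and 363 reads in PA + PS2 and 298, 308 and 339 in PA, so counting error limits this comparison.

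Tm7sf2 and Lbr both encode reductases of the sterol ring, and Lbr also anchors chromatin to the nuclear envelope. Tm7sf2 had 87.2, 87.7 and 68.5 CPM in PA + PS2, 89.2, 79.3 and 66.5 in PA, and 82.8, 67.0 and 67.4 in control libraries, with a log2 fold change against control of 0.16 ± 0.14 in PA + PS2 and 0.11 ± 0.14 in PA. Lbr had 21.6, 21.3 and 18.0 CPM in PA + PS2, 22.3, 19.0 and 20.4 in PA, and 20.3, 22.6 and 20.4 in control libraries. It was the 1 late gene with a log2 fold change below 0 in PA + PS2 against control, at -0.05 ± 0.12. The other 4, Cyp51, the methyl oxidase gene Msmo1, the ketoreductase gene Hsd17b7 and Dhcr7, which makes cholesterol in a final reduction, had log2 fold changes of 0.10 to 0.18 in PA + PS2 against control, with overlapping groups. The late genes had a median log2 fold change of 0.12 in PA + PS2 against control, with 8 of 9 above 0, and -0.04 in PA against control, with 2 of 9 above 0.

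Of the 7 SREBP control genes, 5 had a log2 fold change above 0 in PA + PS2 against control, with a median of 0.045, and 4 in PA against control, with a median of 0.01. Insig1, whose product holds SCAP in the endoplasmic reticulum and whose gene is itself an SREBP target, had 145, 151 and 128 CPM in PA + PS2, 127, 131 and 132 in PA, and 119, 127 and 119 in control libraries. Each PA + PS2 and each PA library lay above all 3 control libraries, the closest being a PA and a control library that both round to 127 CPM. Insig1 was the 1 gene of the list without overlap in PA against control, beside 1.97% of all genes. Its log2 fold change against control was 0.22 ± 0.09 in PA + PS2 (edgeR adjusted p = 0.707) and 0.10 ± 0.09 in PA (edgeR adjusted p = 1). Insig2, its homologue, averaged 22.7 ± 0.405, 22.3 ± 3.05 and 23.2 ± 2.63 CPM in PA + PS2, PA and control (SD, n = 3 each).

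**Figure D3:**
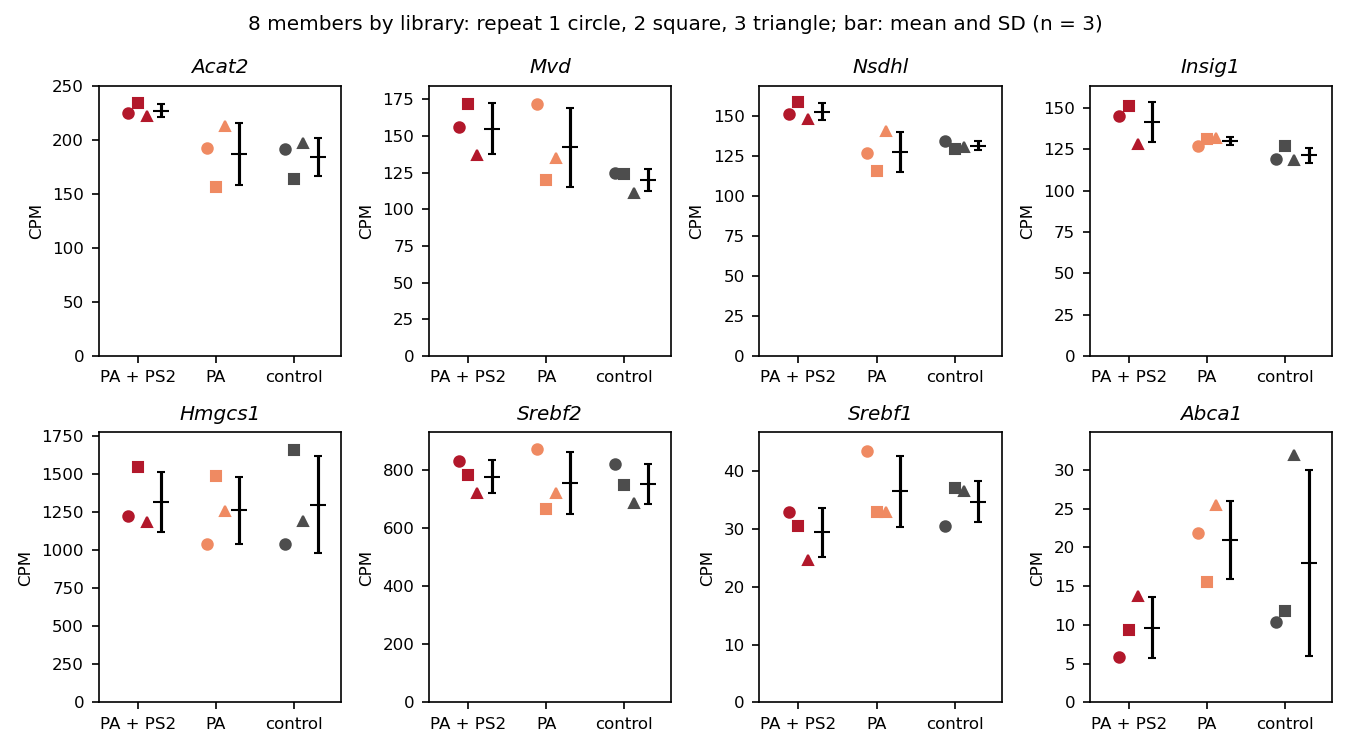
Level in CPM (y axis from 0) of 8 genes in each library, by group, with the mean and SD of 3 libraries as a bar and the repeat as the point's shape. PA + PS2 lies above all other libraries for Acat2 and Nsdhl and above control for Mvd and Insig1, while Hmgcs1, Srebf2 and Srebf1 overlap; Abca1 is lowest in PA + PS2, with 1 control library at 31.9 CPM.

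Srebf2 had 829, 781 and 719 CPM in PA + PS2, 873, 666 and 721 in PA, and 820.5, 747 and 684 in control libraries. The groups overlapped, and the log2 fold change against control was 0.05 ± 0.12 in PA + PS2 and 0.01 ± 0.12 in PA. Srebf1 had 32.996, 30.5 and 24.7 CPM in PA + PS2, 43.5, 32.96 and 32.96 in PA, and 30.6, 37.0 and 36.6 in control libraries. PA + PS2 was lower on average, but its repeat 1 lay above control repeat 1 and level with PA repeats 2 and 3. The log2 fold change was -0.24 ± 0.15 against control (edgeR adjusted p = 1.00) and -0.31 ± 0.15 against PA (edgeR adjusted p = 0.937). Scap averaged 113 ± 2.54, 112 ± 22.9 and 113 ± 4.56 CPM, and Mbtps1 115 ± 2.46, 118 ± 13.6 and 111 ± 4.07 CPM, in PA + PS2, PA and control (SD, n = 3 each). Mbtps2 had 80.4, 76.4 and 81.5 CPM in PA + PS2, 40.0, 66.8 and 86.8 in PA, and 64.0, 72.9 and 88.1 in control libraries. Its PA repeat 1 library stood far below the rest, and the log2 fold change for PA against control was -0.21 ± 0.22. Mbtps2 has 28.9% of its 50-base stretches in other transcripts, and an exon of Yy2 overlaps it on the same strand.

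Abca1 had the widest spread and the largest fold change of the list. It had 5.87, 9.37 and 13.7 CPM in PA + PS2, 21.8, 15.5 and 25.5 in PA, and 10.4, 11.8 and 31.9 in control libraries. PA + PS2 lay below PA without overlap, whereas control spanned the range from PA + PS2 to above PA, with repeat 3 the highest in each group. The log2 fold change was -1.11 ± 0.41 against PA, with a 95% interval of -2.01 to -0.22 (edgeR adjusted p = 0.636). It was -0.89 ± 0.41 against control (edgeR adjusted p = 0.899) and 0.22 ± 0.40 in PA against control (edgeR adjusted p = 1). The unpaired value against control depended on control repeat 3: without that library it was -0.20, and that of PA against control was 0.92. With the repeat block the value of PA + PS2 against control was -0.80 ± 0.24 (edgeR adjusted p = 0.202). In every repeat, PA + PS2 lay below the same-numbered control library. Against PA, values without single libraries ran from -1.45 to -0.85, and the adjusted p was 0.062 with the repeat block. In the fit without a filter on low counts Abca1 passed against PA (edgeR adjusted p = 1.2e-07) and control (edgeR adjusted p = 0.00012), as it did against PA with the block and a correction for GC content together (edgeR adjusted p = 0.0294); over all settings run, adjusted p ranged up to 1. The fibroblast and mural list was lower in the same libraries, with all 9 of its tested genes below 0 in PA + PS2 against control and 1 passing, and a median of -1.71. Its median against PA was -1.25. The dividing cell list had medians of -1.09 and -1.001 against control and PA, and the astrocyte list -0.16 and -0.77. Of the 8 tested astrocyte genes, 2 lay above 0 against control, and the list ran from -1.06 to 1.76. The neuronal list had medians of 0.06 and 0.04 against control and PA. The oligodendrocyte lineage list had medians of -0.02 and 0.10, with genes from -2.42 to 2.24 against control. The microglial list had medians of -0.62 and -0.47 against control and PA, and the endothelial list, with 2 tested genes, -0.38 and -0.45. Genes within these 2 lists differed in direction. Against control, the microglial genes ran from -1.96 to 0.95, with 2 of the 6 tested above 0. The endothelial genes were at -1.25 and 0.48 against control. The part of these cells in the Abca1 values was not tested.

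Of the other transport genes, Stard4, a carrier that moves sterol between membranes, had 104, 125 and 99.6 CPM in PA + PS2, 83.1, 109 and 108 in PA, and 78.2, 111 and 99.0 in control libraries. Its groups overlapped, with a log2 fold change of 0.19 ± 0.15 for PA + PS2 against control. Soat1 had 23.1, 21.7 and 21.7 CPM in PA + PS2, 17.7, 22.9 and 22.6 in PA, and 19.9, 24.8 and 23.4 in control libraries, with a log2 fold change of -0.11 ± 0.13 for PA against control. Npc1 and Npc2, which pass cholesterol out of the lysosome, averaged 64.8 ± 6.57 and 105 ± 2.99 CPM in PA + PS2, 60.9 ± 5.07 and 99.1 ± 9.26 in PA, and 62.9 ± 1.86 and 104 ± 15.4 in control libraries (SD, n = 3 each). Cyp46a1 averaged 32.0 ± 2.68, 33.5 ± 3.73 and 33.5 ± 4.59 CPM in PA + PS2, PA and control (SD, n = 3 each). The 6 genes of this role had a median log2 fold change of -0.02 in PA + PS2 against control, with 3 above 0.

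Genes of neighbouring pathways were set beside the list, and 0 of them passed in any comparison. In PA + PS2 against control, the 17 genes of fatty acid synthesis and desaturation, which SREBP proteins also drive, had a median log2 fold change of 0.15, with 14 above 0. Of these, 6 were higher and 1 lower without overlap, beside 5.38% and 6.54% of all genes. The lower one was Thrsp, a regulator of fatty acid synthesis, at 1.18 ± 0.256 CPM in PA + PS2 and 2.16 ± 0.779 CPM in control (SD, n = 3 each), a log2 fold change of -0.87 ± 0.42. Acss2, which makes acetyl-CoA from acetate, had 22.3 ± 2.39 CPM in PA + PS2, 23.2 ± 0.728 in PA and 19.1 ± 1.28 in control (SD, n = 3 each); in PA its log2 fold change against control was 0.28 ± 0.12 (edgeR adjusted p = 1). The fatty acid list had medians of 0.04 in PA against control and 0.05 in PA + PS2 against PA. The 13 genes of isoprenoid use had medians of 0.03, -0.01 and 0.06 in PA + PS2 against control, PA against control and PA + PS2 against PA. The 10 genes of sterol-dependent protein degradation had -0.01, -0.05 and 0.05, and the 16 tested genes of other sterol uptake, movement and efflux 0.05, 0.03 and 0.02. Scarb1, a receptor for high-density lipoprotein, had the smallest p of that last list in PA + PS2 against control, with 39.1 ± 7.93 CPM against 32.6 ± 4.75 CPM (SD, n = 3 each) and a log2 fold change of 0.26 ± 0.17.

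Repeat number took a larger share of the variation of the list than group. The repeat number accounted for a median of 39.5% of the variance of log2 level of the 33 genes and the group for 19.8%, beside 40.6% and 16.0% over all genes tested. The repeat share exceeded the group share for 19 of the 33 genes, or 57.6%, beside 70.4% of all genes. Pmvk was the 1 gene that passed a test of the repeat number in the fit with the block (edgeR adjusted p = 0.0494), 3.03% of the list beside 0.955% of all genes. It had 71.6 CPM in PA + PS2 repeat 3, 65.8 and 60.8 CPM in the PA and control libraries of that repeat, and 84.1 to 95.4 CPM in the other 6 libraries. Hmgcs1 followed (edgeR adjusted p = 0.0504), with 88.6% of its variance between repeats. Hmgcs1, Cyp51, Msmo1 and Stard4 were highest in repeat 2 of all 3 groups. Mvk, Ebp, Srebf2 and Npc2 were highest in repeat 1 of all 3, and Ggps1, Mbtps2 and Abca1 in repeat 3. The group share was largest for Nsdhl, Insig1, Sqle and Acat2, at 72.0%, 65.1%, 62.0% and 54.9%, with repeat shares of 4.10%, 16.2%, 3.20% and 22.2%. Mvd followed, at 49.3% and 19.9%. These genes were named above for not overlapping between PA + PS2 and control, so their high group shares are not separate evidence.

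**Figure D4:**
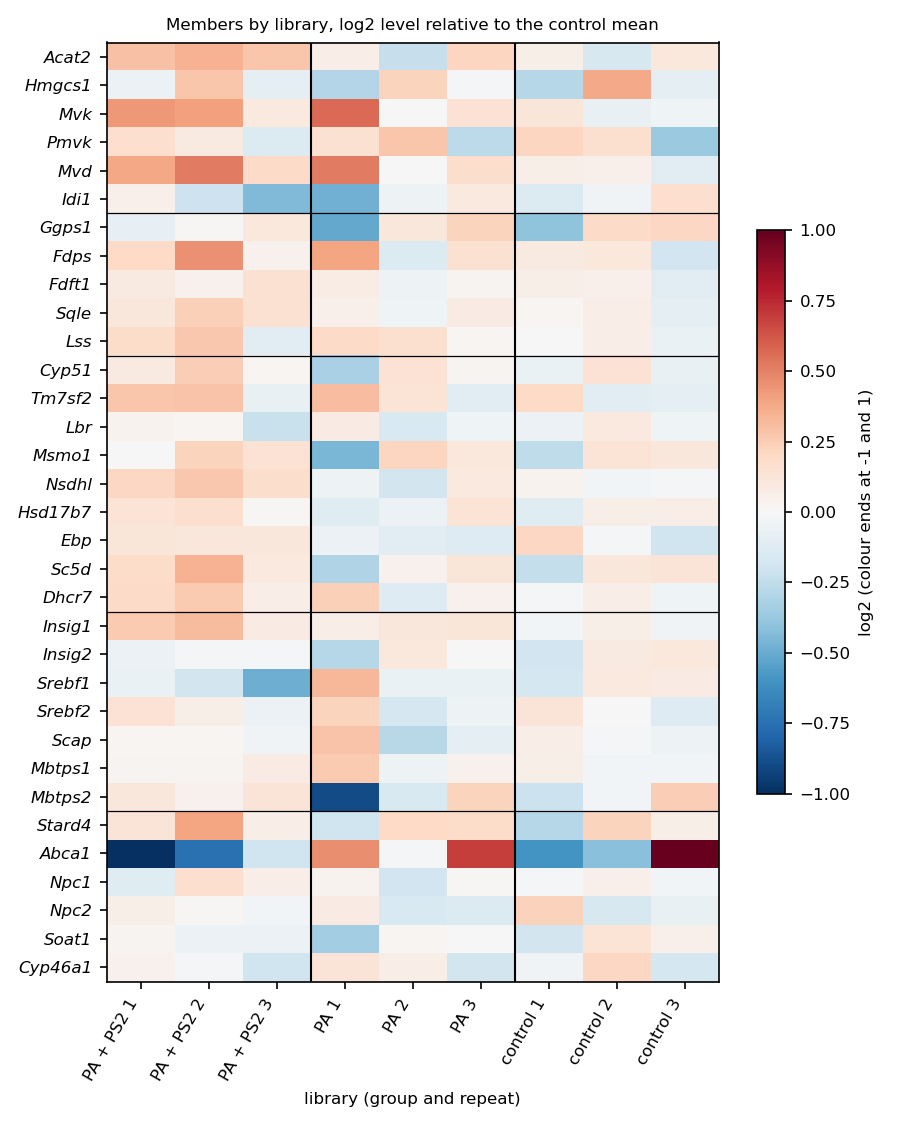
Log2 level of each gene (rows, in pathway order, lines between roles) in each library (columns) relative to the control mean, with colours ending at -1 and 1. Most synthesis rows are red in the 3 PA + PS2 columns; the PA repeat 1 column has both strong reds, such as Mvk and Mvd, and blues, such as Mbtps2 and Ggps1, outside the Abca1 row.

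In 2 libraries the level of a gene rose most clearly with its GC content, the share of G and C in its longest transcript. Across the 33 genes, Pearson's r between GC content and log2 deviation from the control mean was 0.78 (PA) and 0.59 (control) in the repeat 1 libraries of these groups, against 0.56 and 0.37 across the 15699 tested genes with a GC value. It was 0.19 in PA + PS2 repeat 1 and -0.41 to 0.06 in the other 6 libraries. In control repeat 3 and PA repeat 3 it was -0.41 and -0.39, against -0.34 and -0.16 across the tested genes. The control mean includes the control libraries, so their trends offset each other and are not separate. These r are descriptions across genes of 1 library, which are not independent. The 10 genes of lowest GC content, 40.0% to 44.7%, include Mbtps2, Ggps1, Idi1, Sc5d and Hmgcs1, and their median deviation was -0.32 in PA repeat 1 and -0.23 in control repeat 1. The 10 of highest GC content, 51.3% to 59.1%, include Scap, Mvd, Mvk, Srebf1 and Srebf2, with medians of 0.23 in PA repeat 1 and 0.06 in control repeat 1. Both libraries also had the lowest mitochondrial shares of counts. After a correction for GC content, chosen after seeing the data, Mvd was at 0.36 ± 0.09 in PA + PS2 against control (edgeR adjusted p = 0.110; 0.0517 with the block as well), and 0 genes of the list passed in any comparison under the correction alone. Mbtps2 in PA against control was at -0.12 ± 0.10 after the correction and at -0.21 ± 0.22 before it. Across the 33 genes, r between GC content and log2 fold change was 0.09 in PA + PS2 against control, 0.53 in PA against control and -0.15 in PA + PS2 against PA. The synthesis genes above 0 in PA + PS2 against control numbered 18 of 20 after the correction, with a median of 0.12, and 16 of 20 without the repeat 1 libraries, also with a median of 0.12. In PA against control they numbered 15 after the correction, with a median of 0.03, and 11 without repeat 1, with a median of 0.02. In PA + PS2 against PA they numbered 16 after the correction, with a median of 0.11, and 14 without repeat 1, with a median of 0.11.

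**Figure D5:**
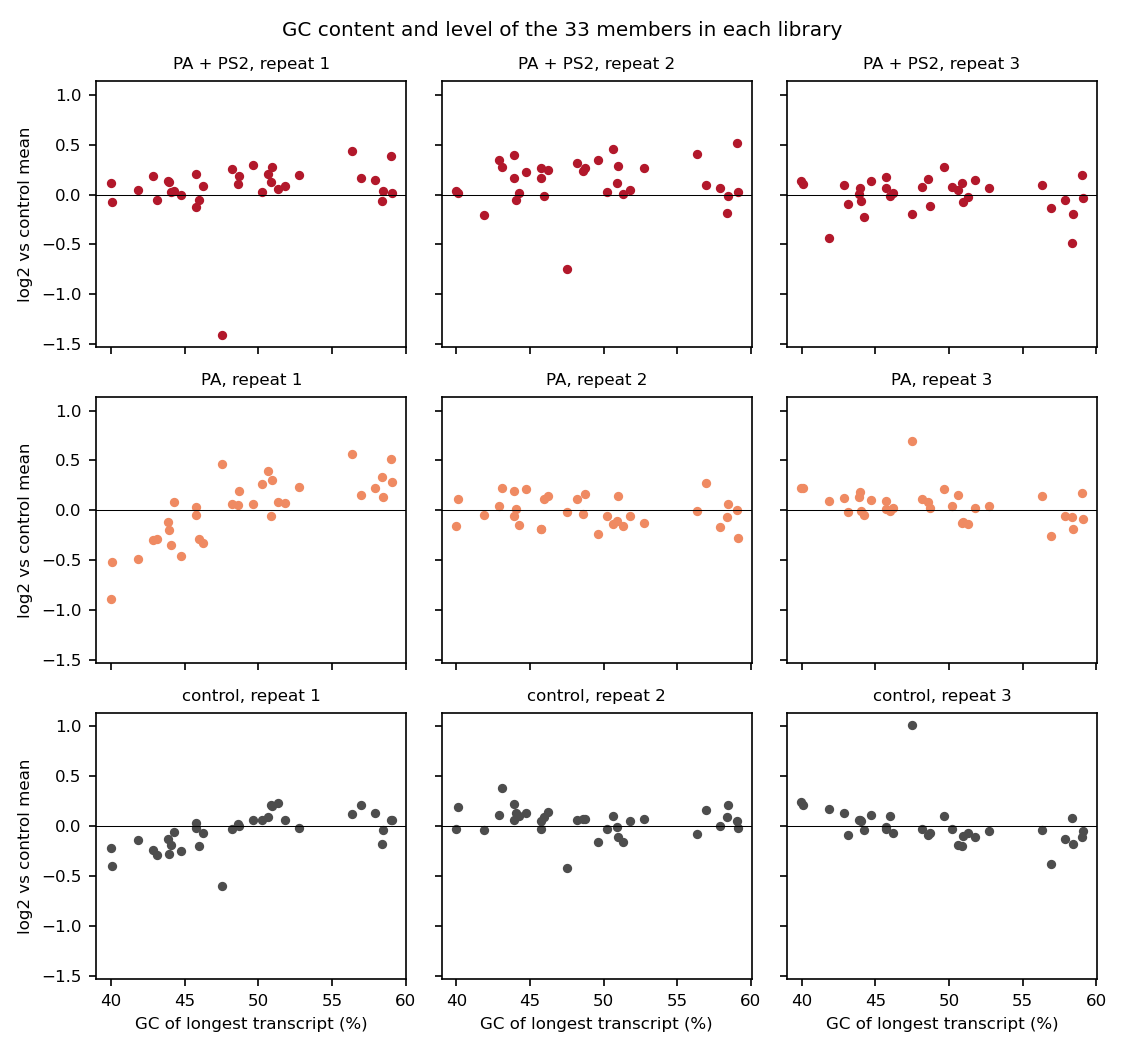
GC content of the longest transcript (x axis, percent) against log2 level relative to the control mean (y axis) for the 33 genes, with 1 panel per library. The points climb with GC content in PA repeat 1, r = 0.78, and control repeat 1, r = 0.59, and lie nearly flat in PA + PS2 repeat 1, r = 0.19.

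Reads of some of these genes may be split with others. Exons of 13 of the 33 genes overlap an exon of another gene in GENCODE M21 (mm10), 10 on the opposite strand and 5 on the same strand, and the strand setting of the counting is not given in the sources used here. Besides Acat2, Idi1 and Mbtps2, Fdps shares 26.2% of its 50-base stretches, mainly with Gm43738, and Fdft1 shares 26.5%, mainly with Ctsb, whose exons overlap it on the opposite strand. Mvd, Nsdhl and Abca1 overlap no other exon and share 0% of their stretches. Nsdhl lies at chrX:72918557-72958514, Mvd at chr8:122433601-122443422, Insig1 at chr5:28071363-28078662, Acat2 at chr17:12942890-12960747 and Abca1 at chr4:53030787-53159895. These 5 genes lie on different chromosomes, and the 33 lie on 17.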

How the data were processed

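Each library has 1 deposited table of whole-number read counts, not normalized, over Ensembl identifiers. The submitters' processing notes list build mm10 with STAR 2.7.5, HTSeq 2.0.2, cutadapt 4.2 and DESeq2 1.14.1, without roles; filters, annotation and strand setting are not given in the sources used here. The labels name both polyA RNA and a total RNA kit. Symbols, lengths and overlaps came from GENCODE M21, which named 54079 of 54232 identifiers.

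CPM and tests used edgeR 4.0.16 in R 4.3.3: TMM scaling, filterByExpr (minimum count 10, minimum total 15; 15712 genes, 99.9% of counts), a 2-sided quasi-likelihood F test on all 9 libraries (6 residual degrees of freedom), common biological variation 16.6%. Each SE is the size of the log2 fold change divided by the root of F. The filter kept all 33 genes. Total counts were 20746851 to 27237398 per library, and the median SE of 0.13 bounds the precision.

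Same-numbered libraries deviated together across genes in PA and control (r = 0.422, 0.365 and 0.28 in repeats 1 to 3) and in PA + PS2 and control (0.183, 0.217 and 0.135), and, in PA + PS2 and PA, in repeats 2 and 3 but not in repeat 1 (0.015, 0.292 and 0.302). The pairing is read from the data. No libraries were duplicates.

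Members and lists (4 neighbouring pathways, 7 cell types or states) were chosen with earlier results of these data known. Genes given in every library are, per comparison, the 6 with the smallest p and the highest and lowest of each role; Hmgcs1, Srebf2 and Pmvk were added after their values were seen. Of each pathway list, up to 3 with the smallest p could be named. Alternatives were a repeat block, RLE scaling, no filter, DESeq2 1.42.0, 2 groups alone and leaving out each library. A GC correction, the GC correction with the block, leaving out repeat 1 and the test of repeat number were chosen after seeing the data.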

Additional observations from a re-analysis of the deposited data

How the results depend on the processing

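With no filter on low counts, 23 genes passed in PA against control, 365 in PA + PS2 against control and 330 in PA + PS2 against PA, and 1 gene of the list, Abca1, passed in each of the last 2. In PA + PS2 against control, where 7 genes passed, 184 passed with the replicate block, 17 with RLE scaling, 208 with DESeq2, 29 with the 2 groups alone, 33 with the GC correction, 305 with the block and the GC correction, and 124 without replicate 1 of every group. Leaving out single libraries gave 0 to 144, with 144 without control replicate 1 and 0 without PA + PS2 replicate 1, control replicate 2 or control replicate 3; 1 or 2 passed without PA + PS2 replicate 2 or 3 or PA replicate 3. In PA + PS2 against PA, where 0 passed (162 higher and 719 lower genes had an unadjusted edgeR p under 0.05), 57 passed with the replicate block, 121 with DESeq2, 7 with the 2 groups alone, 2 with the GC correction, 166 with the block and the GC correction, of which 1, Abca1, is of the list, and 3 without replicate 1 of every group. Leaving out single libraries gave 0 to 17, with 17 without control replicate 1 and 2 without PA + PS2 replicate 2. The cause of these differences was not tested. Pairing by the block changed no other call of the list.

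The median log2 fold change of the 33 genes, 0.09, 0.00 and 0.08 in PA + PS2 against control, PA against control and PA + PS2 against PA, ran over 0.06 to 0.12, -0.02 to 0.04 and 0.05 to 0.13 when single libraries were left out. Of 1683 values of single genes recomputed over 17 settings, 1670 kept their direction or moved by less than their spread with the same call, 10 moved further and 3, all of Abca1, newly passed; 0 reversed and 0 were lost. Where an arm has 2 libraries, the fit assumes the same spread as in the other groups. With 3 libraries a group the median SE was 0.13 on the log2 scale, which limits what these comparisons can detect; Idi1, with as few as 52 reads in a library, is the least certain by depth.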
